A study of Mus musculus with 2 samples.

Results

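Of 1172 wide stretches of JARID2 signal on mouse chromosomes 1 to 19, 681 held no peak of MTF2 (58.1%), and these 681 blocks are described here. The measurements are ChIP-seq of mouse embryonic stem (ES) cells: chromatin fragments carrying a protein are pulled down with an antibody, and their DNA is read. There was 1 library with an antibody to MTF2 and 1 with an antibody to JARID2, both from cells of a 129SvJae x C57BL/6 background at passages 10 to 15, grown with ESGRO and taken off feeder cells shortly before harvest. The labels name no treatment, no genetic change, no input library and no replicate. All values therefore compare places within a library or describe these 2 libraries, and no test between the proteins was made.

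JARID2 is a Jumonji-family protein without the demethylase activity of its relatives, and MTF2 is a Polycomb-like protein. Both associate with PRC2, the complex that methylates lysine 27 of histone H3 and helps to keep developmental genes silent in ES cells. JARID2 and the Polycomb-like proteins are known as markers of different forms of PRC2, so a place rich in one and poor in the other is of interest for how the complex is placed. The series title presents JARID2 and PRC2 as partners. The label of the cells could not be checked here, since the occupancy of 2 chromatin proteins does not measure the expression of ES cell markers.

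The blocks were chosen by the measured levels of both proteins. Reads were counted in 1 kb bins, and the fold of a bin is its count over the mean count of its chromosome's bins up to the 99th percentile. JARID2 bins of 5-fold or more were joined across gaps of up to 1 kb, which gave 25788 blocks, and a member is a block of at least 5 kb with no bin at an MTF2 fold of 5 and with under 3 deposited JARID2 lines per kept read. The last condition removed no block by itself, because all 3 wide blocks at or over that level also had an MTF2 bin at the limit. Of 2382450 bins, 1.88% were at 5-fold or more in JARID2 and 0.178% in MTF2. Among JARID2 blocks of any width, 96.0% had no MTF2 bin at the limit. Nothing is read from the lower share among wide blocks, which offer more bins in which MTF2 could pass. The libraries held 8946204 kept reads for MTF2 and 12900993 for JARID2, and the median expected count per bin was 3.39 and 4.25 reads, so the MTF2 limit corresponds to 16 to 24 reads in a bin, depending on the chromosome.

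Most members were only a little wider than the rule required. The numbers were 300 blocks of 5 kb, 176 of 6 kb, 146 of 7 to 9 kb, 55 of 10 to 19 kb and 4 of 20 kb or more, with a median of 6 kb. Together they covered 4544 kb, of which 541 bins (11.9%) lay under the JARID2 limit inside joined gaps. The JARID2 fold over the whole block ran from 3.56 through a median of 13.7 to 71.7, and the middle 50% of members from 8.40 to 22.5. Pooled over all members, 342337 JARID2 reads gave 17.4-fold (exact Poisson 95% interval 17.3 to 17.5, counting error only). These values were part of the choice and are given as a description. The number of members depends strongly on the limits. It was 1276 at a JARID2 limit of 4 and 295 at 7, 380 with no gap joined and 205 at a minimum width of 7 kb.

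The plot of JARID2 against MTF2 level shows how the members lie beside the other wide blocks.

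**Figure D1:**
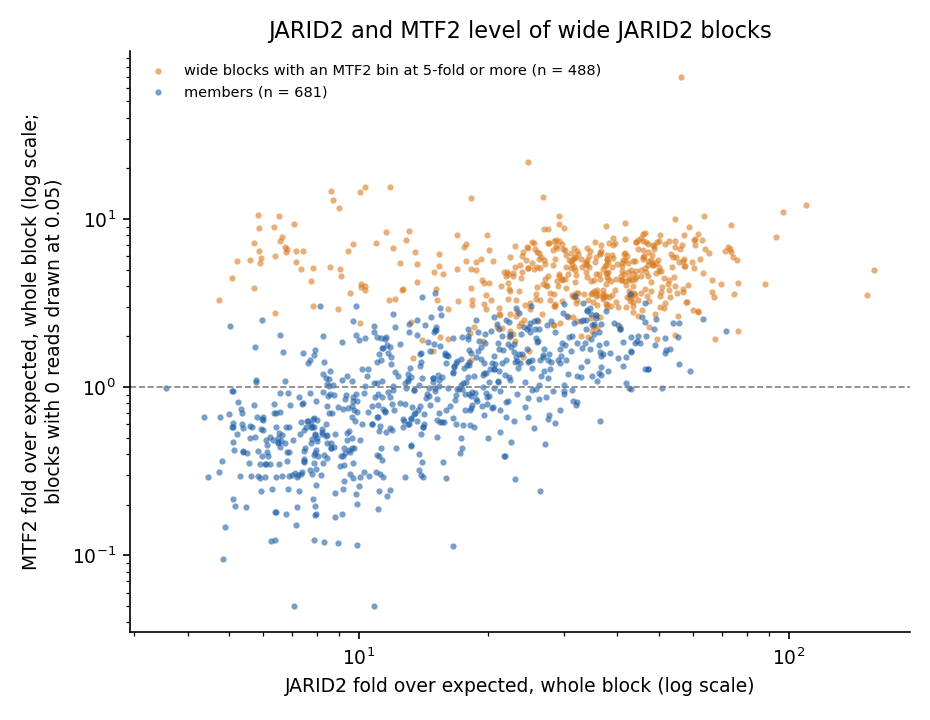
Each point is a wide JARID2 block, with its JARID2 fold (horizontal) and MTF2 fold (vertical) over the whole block, both on log scales. The 681 members lie between 0 and 3.64-fold in MTF2 and the 488 wide blocks with an MTF2 bin at the limit between 1.44 and 69.6-fold. The dashed line marks the expected MTF2 level.

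The widest member carried evenly spaced JARID2 peaks. It covered 148 kb of chromosome 6, from 114455001 to 114603000, with 11997 JARID2 reads and 560 MTF2 reads. Its JARID2 bins ran from 2.86 through a median of 19.1 to 48.4-fold, while the 20 bins beside it, 10 on each side, had a median of 1.56-fold and a highest of 6.25-fold. The level thus fell to near background at both ends of the block. Inside, 61 peaks above the block's mean lay a median of 2400 bp apart, and the autocorrelation of the JARID2 profile was 0.767 at 2400 bp and 0.668 at the double of that distance. The MTF2 autocorrelation at the same distance was -0.0187. This does not show whether MTF2 shared the spacing, because 560 reads over 148 kb leave most steps of 100 bp empty. The MTF2 fold over the block was 1.08 (0.992 to 1.17), and the MTF2 bins ran from 0 through a median of 0.856 to 4.57-fold.

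The second widest member had the same kind of pattern with a longer step. It covered 34 kb of chromosome 4, from 88244001 to 88278000, where JARID2 was 25.4-fold (24.6 to 26.2) and MTF2 1.29-fold (1.10 to 1.52). There were 12 peaks with a median distance of 2900 bp, and the JARID2 autocorrelation was 0.929 at 2900 bp and 0.889 at the double. The MTF2 autocorrelation at 2900 bp was 0.118, from only 151 MTF2 reads, so the same limit holds. Another member of 10 kb, from 88226001 to 88236000, lay 8 kb before it, at 20.1-fold in JARID2 and 1.08-fold in MTF2. A weaker case was the member of 12 kb on chromosome 8 from 58401001 to 58413000, with a JARID2 autocorrelation of 0.557 at 3400 bp and 0.506 at the double. The MTF2 autocorrelation there was 0.111 at 3400 bp, again from few reads per step. A neighbouring member of 11 kb lay only 2 kb away. In the 22 other members of 12 kb or more the value at the double of the best distance was at most 0.147. These 3 blocks were singled out after their values were seen. Spacing was not measured in the wide blocks with an MTF2 bin at the limit, so it is not shown to be particular to members. The 2 libraries alone do not show whether the DNA there is repeated, because a genome matching the files was not used here.

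**Figure D2:**
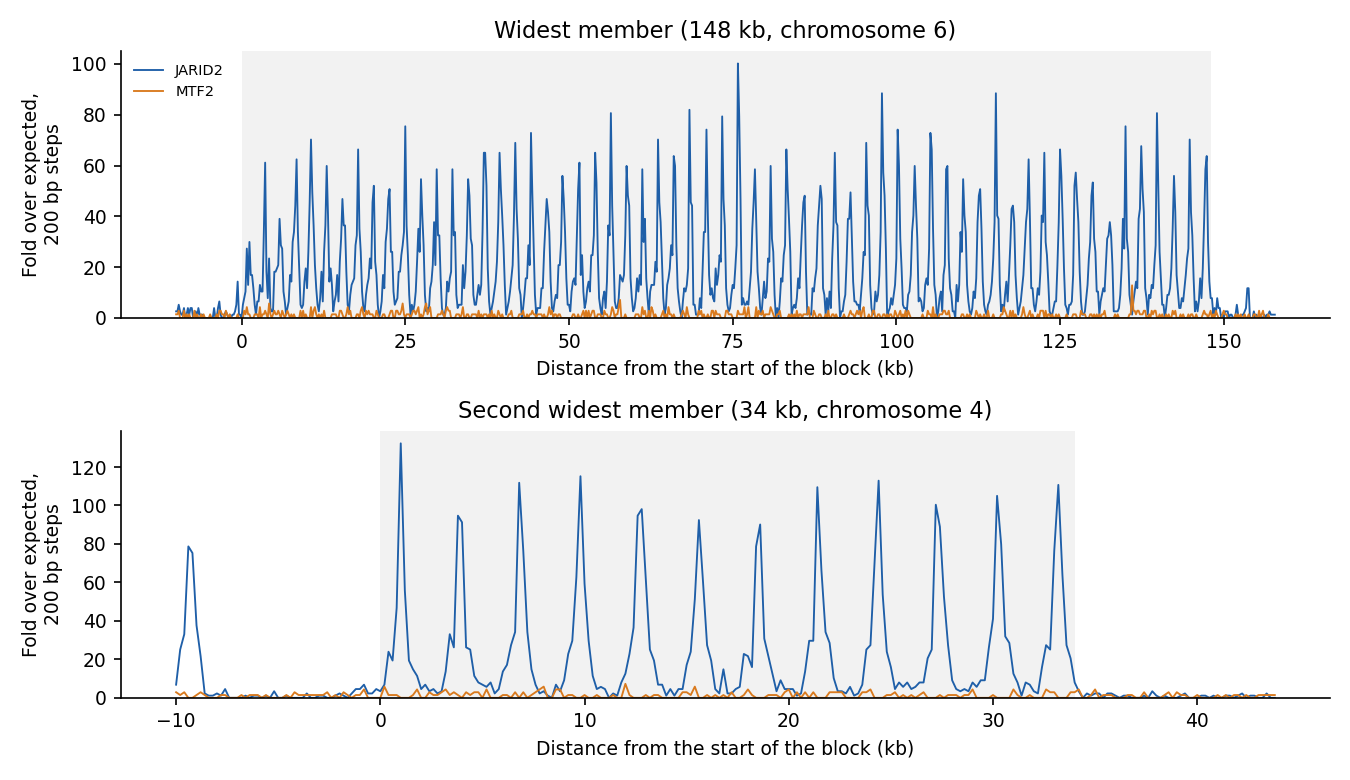
JARID2 and MTF2 fold in 200 bp steps along the 2 widest members, against the distance from the start of the block in kb, with the block shaded. JARID2 rises and falls 61 times above the block mean in the 148 kb block and 12 times in the 34 kb block. At the JARID2 peak distances the MTF2 profile has autocorrelations of -0.0187 and 0.118. The MTF2 reads per step are too few for these values to show whether MTF2 shares the spacing. MTF2 reaches 12.8-fold in 1 step of the 148 kb block.

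The other 8 of the 10 widest members had no such repeated step. On chromosome 4 from 150957001 to 150979000 (22 kb) the JARID2 bins reached 130-fold around a median of 14.2-fold, and MTF2 was 0.848-fold (0.653 to 1.08). On chromosome 1 from 75358001 to 75379000 (21 kb) JARID2 was 15.2-fold and MTF2 0.638-fold (0.469 to 0.848). Chromosome 15 from 75999001 to 76018000 (19 kb) had 1083 JARID2 reads, at 13.8-fold, and only 20 MTF2 reads, at 0.320-fold (0.195 to 0.494). Both of these had MTF2 intervals below the expected level. On chromosome 8 the member from 74608001 to 74624000 was at 18.2-fold in JARID2 and 0.730-fold in MTF2, and that from 72808001 to 72823000 at 36.7-fold and 1.18-fold. The rest of the 10 widest had low, broad JARID2 levels. They lay on chromosome 10 from 80537001 (7.45-fold) and 80803001 (6.21-fold) and on chromosome 1 from 74317001 (9.21-fold). MTF2 there was 0.359, 0.349 and 0.741-fold.

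The 10 members with the highest JARID2 fold were 5 to 9 kb wide. The highest JARID2 fold was on chromosome 14 from 24290001 to 24296000, at 71.7-fold (68.2 to 75.3) with 1603 reads, and MTF2 had 44 reads there, at 2.14-fold (1.56 to 2.88). On chromosome 8 from 28442001 to 28448000 JARID2 was 63.3-fold and MTF2 2.53-fold (1.97 to 3.19). Chromosome 1 from 74787001 to 74792000 stood at 59.1-fold with MTF2 at 1.25-fold (0.786 to 1.90), only 22 kb from an MTF2 bin at the limit. In these 3 and in the next 7 by fold, between 51.6 and 55.7-fold in JARID2, the MTF2 fold ran from 1.25 to 2.53. The interval lay above 1 in 8 of the 10, and the exceptions were the member from 74787001 and that on chromosome 5 from 111654001 to 111663000, at 1.38-fold (0.994 to 1.86). The highest 1 kb bin of JARID2 in any member, 193-fold, lay on chromosome 6 from 115956001 to 115962000, where the highest MTF2 bin was at 4.85-fold with 17 reads. Most of the strongest members were thus above the MTF2 background while staying under the limit.

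MTF2 over the members as a whole was close to its expected level. The 17405 MTF2 reads in the members gave 1.10-fold (1.08 to 1.12). This side of 1 is not stable. The pooled fold was 0.954 when the chromosome median served as the expected count, 0.997 at a JARID2 limit of 4 and 0.754 at an MTF2 limit of 3. The MTF2 fold per member ran from 0 through a median of 0.918 to 3.64, and it was under 0.5 in 158 members, from 0.5 to 1 in 216, from 1 to 2 in 212 and 2 or more in 95. The exact interval lay above 1 in 197 members (28.9%) and below 1 in 188 (27.6%), while among 364328 windows of 6 kb outside JARID2 blocks those shares were 7.69% and 6.19%. The limit on MTF2 bins took part in these counts, and the windows are a background only. The highest MTF2 bin was under 1-fold in 139 members, from 1 to 2-fold in 215, from 2 to 3-fold in 133, from 3 to 4-fold in 99 and from 4 to 5-fold in 95. So the set runs from blocks without a sign of MTF2 to blocks just short of a peak.

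Within the range that the rule allows, members with more JARID2 also held more MTF2. Both levels took part in the choice, since every MTF2 bin of a member had to be under 5-fold, so the values that follow are a description of a truncated set. In 238 members under 10-fold in JARID2 the pooled MTF2 fold was 0.637 (0.615 to 0.659), in 234 members of 10 to 20-fold it was 1.10 (1.08 to 1.13), and in 209 members of 20-fold or more it was 1.55 (1.52 to 1.58). The MTF2 interval lay below 1 in 139 of the weakest group and in 8 of the strongest, and above 1 in 17 and 121. Over the 681 members Spearman's rho of the folds was 0.635 and Pearson's r of log2 JARID2 fold with log2 (MTF2 fold + 0.1) was 0.615. The points share both libraries and their chromosomes' expected counts, and genome regions are not replicates. The order of the weakest and strongest groups held under every alternative tried. The weakest ran from 0.556 to 0.731 and the strongest from 1.08 to 1.64. Without the widest member the strongest group was at 1.60. The same order appeared bin by bin, apart from the share of empty bins, which was highest at 10 to 20-fold (16.7%). Member bins of 5 to 10-fold in JARID2 were at 0.900-fold in MTF2 (0.877 to 0.923) with 15.6% of bins empty of MTF2 reads, and bins of 100-fold or more were at 2.46-fold (2.27 to 2.67) with 4.41% empty. Over all bins of chromosomes 1 to 19 with a read, 5.32% had no MTF2 read.

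The surroundings of the members held less MTF2 than expected. The rule set no limit on MTF2 in these flanks, but they adjoin blocks chosen for low MTF2 bins. How far that choice sets their level was not tested. In the bins within 5 kb of a member and outside every JARID2 block, MTF2 was at 0.834-fold (0.822 to 0.846). This value was 0.749 (0.729 to 0.769) around the weakest members, 0.850 (0.830 to 0.872) around the middle group and 0.908 (0.885 to 0.931) around the strongest. The weakest members thus lay below their own flanks in MTF2 and the strongest above them. In the highest JARID2 bin of each member, where the rule also kept MTF2 under 5-fold, MTF2 was at 0.604-fold (0.552 to 0.659) in the weakest and 2.07-fold (1.97 to 2.18) in the strongest group. JARID2 itself was at 2.10-fold (2.08 to 2.11) in the flanks. Bins outside every JARID2 block are under 5-fold in JARID2 by definition, so the rule capped this value.

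**Figure D3:**
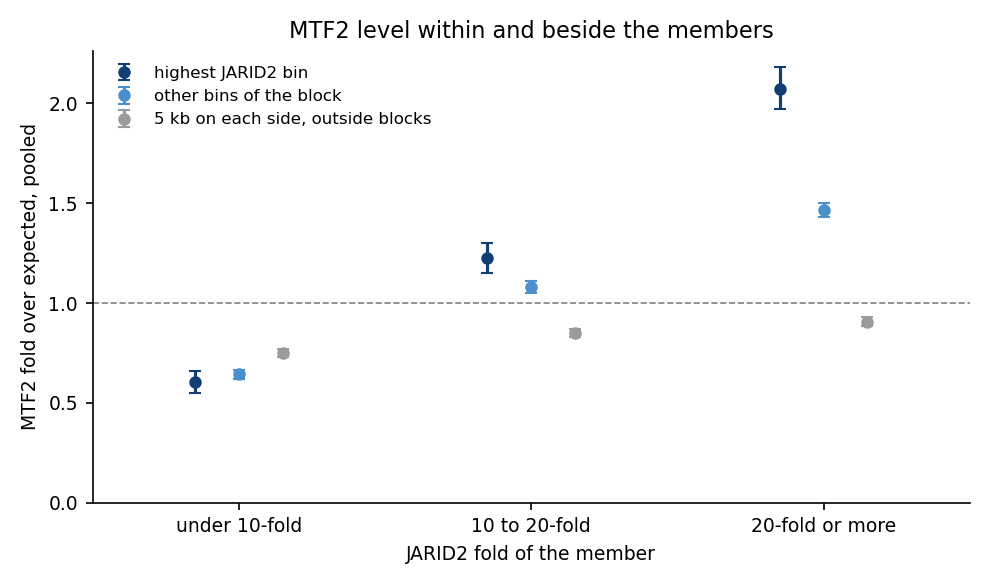
Pooled MTF2 fold over expected (vertical) in the highest JARID2 bin, the other bins and the flanks of members, for 3 classes of JARID2 fold (horizontal). Bars are exact 95% Poisson intervals for counting error. In the class under 10-fold all 3 places lie below the dashed line at 1, and in the class of 20-fold or more the highest JARID2 bin stands at 2.07 and the flanks at 0.908.

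At finer scale, pooled over all members, MTF2 was lower at the JARID2 summit than beside it. Around the highest 200 bp step of JARID2 in each member, JARID2 fell from 68.5-fold at the step to 15.3 and 14.1-fold at 1000 bp on either side. The pooled MTF2 level was 1.07-fold (0.976 to 1.16) at the step, 1.62-fold (1.51 to 1.74) 600 bp before it and 1.51-fold (1.401 to 1.62) 400 bp after it, in coordinate order. Over the step and its neighbours of 200 bp the MTF2 fold was 1.13, and over the steps from 400 to 800 bp on both sides 1.43, a ratio of 0.786 (0.741 to 0.833). The ratio was 0.725 (0.625 to 0.838) in the weakest members, 0.691 (0.622 to 0.766) in the middle group and 0.876 (0.807 to 0.9498) in the strongest. In the strongest the step itself was no low point, at 2.08-fold, against 1.93 and 1.85-fold at 200 bp before and after it. The highest shoulder step there was at 2.73-fold, 600 bp before. A ratio below 1 was also found outside the set. In the 488 wide blocks with an MTF2 peak the ratio was 0.803 (0.778 to 0.829). The ratio over all members lay between 0.697 and 0.823 under all alternatives, and was 0.784 with MTF2 lines of score 0 left out. This ratio was chosen after the profiles were seen, and the reads of the libraries differ in length, 52 bp for MTF2 and 36 bp for JARID2. The part of read length or of the ease of placing reads in this ratio was not tested.

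**Figure D4:**
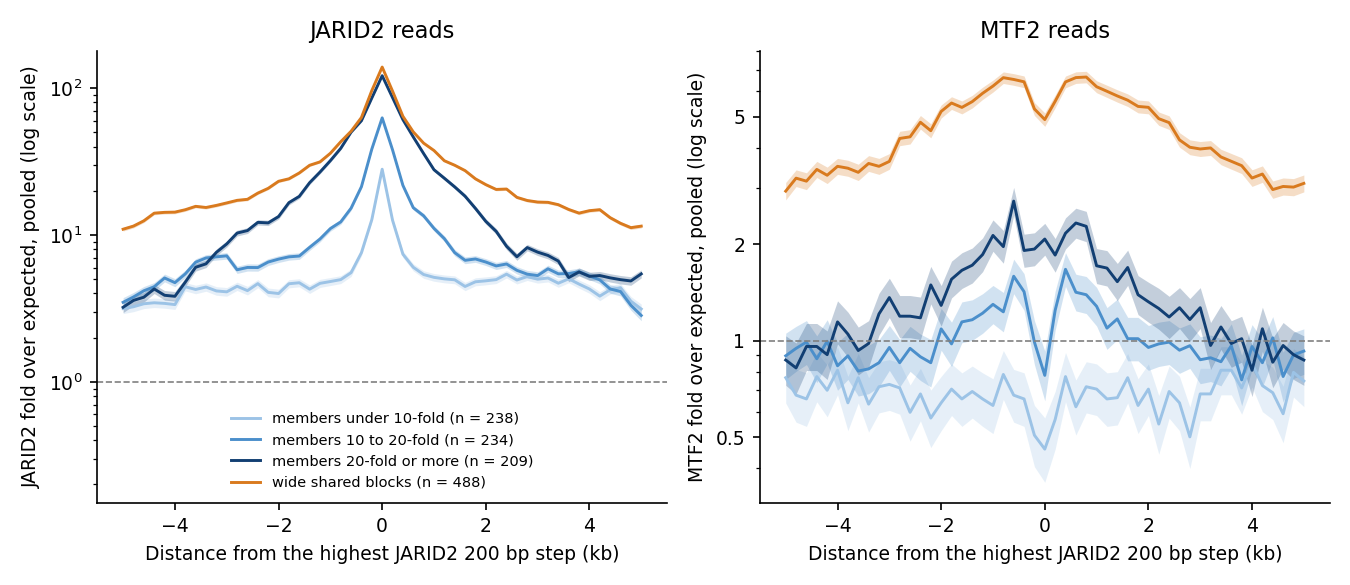
Pooled JARID2 (left) and MTF2 (right) fold over expected, on log scales, against the distance in kb from the highest JARID2 step of each block, for 3 classes of members and the 488 wide blocks with an MTF2 bin at the limit (wide shared blocks), with 95% Poisson bands. JARID2 peaks at 0 in every group. Over all members MTF2 is at 1.07-fold at 0 and at up to 1.62-fold beside it. The trough is least regular in the class of 20-fold or more, where MTF2 is at 2.08-fold at 0 and lower at 200 bp on either side.

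At the low end of MTF2, 2 members had no MTF2 read at all. They lay on chromosome 7 from 99223001 to 99228000, with 157 JARID2 reads at 7.07-fold, and on chromosome 17 from 33729001 to 33734000, with 248 reads at 10.9-fold. Counts of 0 allow MTF2 folds of up to 0.223 and 0.228 there. The next lowest were chromosome 1 from 136944001 to 136950000 (2 MTF2 reads, JARID2 4.82-fold) and chromosome 6 from 113457001 to 113462000 (2 reads, JARID2 16.5-fold). On chromosome 3 from 93366001 to 93378000, a block of 12 kb, 5 MTF2 reads stood beside 418 JARID2 reads. JARID2 formed a plateau there, with bins from 7.13 to 11.98-fold. Of these 5, only the block on chromosome 6 had a JARID2 bin above 13-fold, at 40.6-fold.

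At the high end of MTF2, 3 of the 5 highest members lay within 8 kb of a bin at the MTF2 limit. Chromosome 13 from 117414001 to 117419000 had the highest MTF2 fold, 3.64 (2.80 to 4.66), beside 15.0-fold JARID2, and the bin directly beside it was at the MTF2 limit. Chromosome 12 from 34540001 to 34545000 was at 3.57-fold in MTF2 and 42.7-fold in JARID2, 8 kb from such a bin. Chromosome 10 from 42859001 was at 3.49 and 31.9-fold, chromosome 4 from 3006001 at 3.43 and 14.0-fold, and chromosome 13 from 34657001 at 3.18 and 46.3-fold. All 5 had a highest MTF2 bin between 4.62 and 4.96-fold. Just inside the limit were chromosome 3 from 54895001 (4.999-fold, 18 reads) and chromosome 8 from 73415001 and from 78107001 (4.98-fold, 23 reads each). Just outside were chromosome 9 from 95213001 and from 110581001 (5.01-fold, 17 reads each) and chromosome 16 from 17745001 (5.02-fold, 17 reads). A difference of 1 read decides on which side such blocks fall. At the limit on lines per read the highest member stood at 1.94 (chromosome 14 from 6793001) and the lowest block outside at 4.58 (chromosome 9 from 2999001), so nothing lay near it. At the limit on width, 655 blocks of 4 kb met the other conditions, with a median JARID2 fold of 14.7 and MTF2 fold of 0.890, against 12.5 and 0.880 in the 300 members of 5 kb.

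The 488 wide blocks that did hold an MTF2 bin at the limit, with under 3 lines per read, were wider and stronger. Their median width was 9 kb against 6 kb, their median JARID2 fold 33.95 against 13.7, and 38 of them reached 20 kb against 4 members. Since wider blocks offer more bins to pass, this difference in width is in part built into the rule. The MTF2 folds differ by the rule. In blocks of 20-fold or more the pooled MTF2 fold was 5.60 (5.57 to 5.64) in 392 blocks with an MTF2 peak and 1.55 in the 209 members. The JARID2 level was not equal within that class, at 42.8 and 30.2-fold. The flanks, which adjoin blocks sorted by their MTF2 bins, differed too, at 1.69-fold MTF2 (1.67 to 1.71) beside blocks with a peak and 0.834-fold beside members. The 38 blocks with a peak under 10-fold in JARID2 had flanks at 4.96-fold (4.82 to 5.09). Most of these 38 lay in a few tight groups, such as chromosome 5 from 14918001 to 15206000 and chromosome 8 from 19697001 to 20428000. Their values, with the variation between bins given below, therefore describe few places, and their flanks are part of the 1.69-fold. In the class of 20-fold or more the flanks were at 1.34-fold (1.32 to 1.36) beside blocks with a peak and 0.908-fold beside members. JARID2 in the flanks was 2.10-fold in both whole groups, where the rule held every flank bin under 5-fold, so nothing is read from this likeness. The median coefficient of variation of JARID2 from bin to bin was 0.701 in members and 0.862 in blocks with a peak. Within classes of JARID2 fold the order was not constant, at 0.474 and 0.313 under 10-fold, 0.777 and 0.805 at 10 to 20-fold, and 0.927 and 0.885 at 20-fold or more. In members this coefficient was higher where the JARID2 fold was higher (rho 0.676), from a median of 0.474 in the weakest to 0.927 in the strongest group. Bins outside joined gaps had to reach 5-fold, which leaves members of low JARID2 fold little room to vary. This relation is therefore in part built into the rule.

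Members were unevenly spread over the chromosomes. Chromosome 10 had the most per Mb, 0.433, followed by chromosomes 7, 11 and 19 at 0.429 each, and chromosomes 16 and 6 the fewest, at 0.0945 and 0.123. The share of wide blocks that were members ran from 39.1% on chromosome 6 and 41.4% on chromosome 5 to 78.6% on chromosome 10. Chromosome 5 had the most wide blocks with an MTF2 peak per Mb, 0.342, and chromosome 10 one of the lowest densities of those, 0.118. The median MTF2 fold of members was lowest on chromosome 10, at 0.582, and highest on chromosome 16, at 1.59, where the 9 members had a median JARID2 fold of 36.2. Of the 55 members on chromosome 10, 17 lay between 80209001 and 81032000 and 13 between 79138001 and 79764000. Their MTF2 folds were at most 1.02 and 1.08. The values of chromosome 10 thus describe these dense stretches in large part. Chromosome 8, with the highest expected counts of the autosomes (4.62 for MTF2 and 5.83 for JARID2), had 49 members at a median MTF2 fold of 0.822.

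**Figure D5:**
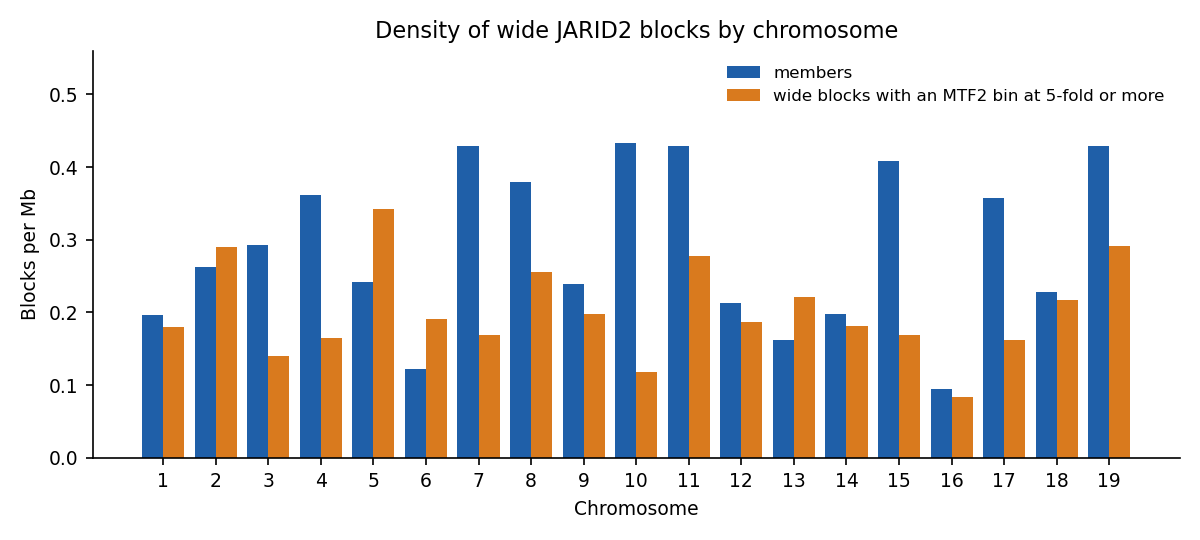
Bars give the number of blocks per Mb (vertical) for members and for wide blocks with an MTF2 bin at 5-fold or more, by chromosome (horizontal). Members are most dense on chromosome 10, at 0.433 per Mb, where the other wide blocks stand at 0.118. Of its 55 members, 17 and 13 lie in dense stretches of under 1 Mb.

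Some members lay close to others. The next member lay a median of 193 kb away, within 100 kb for 262 of the 681 and within 10 kb for 84. Only gaps of up to 1 kb were joined, so neighbours as little as 2 kb apart counted as separate members. The same distances were not measured among the wide blocks with an MTF2 peak, some of which also lay close together, so closeness is not shown to be particular to members. On chromosome 10, 17 members lay between 80209001 and 81032000, with JARID2 from 5.59 to 14.1-fold and MTF2 from 0.194 to 1.02-fold, and no wide block with an MTF2 peak among them. Another 13 lay between 79138001 and 79764000 on the same chromosome, with 1 such block in the 1 Mb from their start. Chromosome 15 had 14 between 75535001 and 76530000, where JARID2 ran from 5.95 to 47.1-fold and MTF2 from 0.304 to 1.28-fold. Chromosome 1 had 11 between 74701001 and 75437000, and chromosome 7 had 10 between 44219001 and 45212000. In 4 of these 5 groups no member exceeded an MTF2 fold of 1.28, and in that of chromosome 1 the highest was 1.58. For all 681 members the nearest bin at the MTF2 limit was a median of 737 kb away, within 100 kb for 76 members and within 10 kb for 25. For 24086 narrower JARID2 blocks without an MTF2 peak that median was 709 kb, so wide and narrow blocks without MTF2 lay about as far from MTF2 peaks. The nearest wide block with an MTF2 peak was a median of 1571 kb away.

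The MTF2 reads in members were less repeated than over chromosomes 1 to 19 as a whole. The rule set no limit on repeated MTF2 lines, but its limit on MTF2 bins left out the blocks with the most MTF2 signal. The part of that choice in the contrast was not tested. Members had 1.04 deposited MTF2 lines per kept read, wide blocks with an MTF2 peak 1.06 and chromosomes 1 to 19 as a whole 1.235. The deposited MTF2 score, whose meaning is not given, was 0 for 27.7% of the kept MTF2 reads in members (exact 95% interval 27.1 to 28.4), 31.2% in the wide blocks with a peak and 41.5% of all kept reads. JARID2 lines per kept read ran from 1 through a median of 1.14 to 1.94 in members, with 1.12 over chromosomes 1 to 19. JARID2 reads fell evenly on the strands, with 49.9% on the plus strand in members together and 48.0 to 52.1% in the middle 50% of them.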

How the data were processed

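The deposited files listed aligned reads as intervals, 1 line per read, with a deposited score of 0 to 10 in MTF2 and a constant in JARID2. Per the labels' protocols the libraries had 15 PCR cycles. The aligner, genome build and read filters were not given in the sources used here, and coordinates are printed as in the files, counted from 1. The gene table at hand is of another assembly, so no genes and no sequences are given.

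Lines that shared chromosome, strand and 5' end counted as 1 read (81.4% of MTF2 and 89.2% of JARID2 lines remained). Reads were moved downstream by 70 bp (MTF2) or 100 bp (JARID2) and counted in 1 kb bins, with Python 3.11.15 and numpy 2.4.6. Intervals are exact, Poisson for folds and Clopper-Pearson for shares. Those of reads cover counting error only, since PCR copies are not independent molecules. The interval of the share of wide blocks that were members, 55.22 to 60.95%, treats the blocks as independent draws. Genome regions are not replicates, so it measures no spread between libraries. Peak spacing was read from the autocorrelation of 100 bp steps in members of 12 kb or more, past its first fall below 0. The block caller was run on simulated blocks of even level with Poisson counts. Members are less even than these, so that run checks the code and not the choice of members. Named blocks are the 10 widest, the 10 highest in JARID2, and the 5 highest and 5 lowest in MTF2. Blocks nearest to each threshold are named too. The set and its measures were chosen with earlier results of these data known.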

Additional observations from a re-analysis of the deposited data

Results flagged for a closer look

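Chromosome X lies outside the rule, yet the same conditions held there for 28 of its 88 wide JARID2 blocks, with 6559 JARID2 and 582 MTF2 reads. Their median folds were 11.1 in JARID2 and 1.28 in MTF2, and the widest was 15 kb. The expected counts on that chromosome were lower than on the autosomes, at 2.24 reads per bin for MTF2 and 2.10 for JARID2, so the limits rest on fewer reads there.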

How the results depend on the processing

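Over 7 results of the whole set and 13 alternatives, 48 values stayed close to the main value and 43 moved. The pooled MTF2 fold, 1.10 in the main analysis, passed to below 1 in 3 of them, and its interval excluded 1 in 2 of those. Close means within 1.5 times for a number of members and within the counting interval otherwise. Limits, widths and gaps change which blocks count as members by construction, and for the others the cause was not tested. With every line counted the pooled folds were 18.8 (JARID2) and 1.05 (MTF2), with reads not moved JARID2 was 17.65, and with bin borders moved by 500 bp MTF2 was 1.07 and its flanks 0.809. With the expected count set to the chromosome median there were 1507 members, 68.25% of wide blocks, at 15.35 (JARID2) and 0.954 (MTF2), with flanks at 0.883 and a median distance to an MTF2 peak of 525 kb. A JARID2 limit of 4 gave 1276 members, 68.8%, at 14.0 and 0.997, and a limit of 7 gave 295, 42.3%, at 23.2 and 1.215. An MTF2 limit of 3 gave 41.55%, folds of 14.1 and 0.754, flanks at 0.744 and a distance of 110 kb. With no gap joined there were 380 members, 44.7%, with a median width of 5 kb, folds of 23.4 and 1.32 and flanks at 0.881. A minimum of 7 kb gave 205 members, 38.5%, a median of 8 kb, JARID2 at 18.2 and flanks at 0.811. JARID2 thinned to the MTF2 depth gave 17.2 and 1.08. Without MTF2 lines of score 0 the share was 50.3%, the folds 15.9 and 1.13, the flanks 0.884 and the distance 466.5 kb. Leaving out the widest member gave 17.3 for JARID2. That alternative, the one without strand-skewed blocks, and all alternatives of the 2 classes and of the summit ratio were added after the data were seen. For 30 named members, 304 of 360 folds stayed within their intervals and 56 moved. JARID2 moved in 28 of 30 with the chromosome median, by up to 1.48 times, and in 19 with every line counted, by up to 1.36 times. The other moves were in MTF2, 8 without lines of score 0 and 1 with the chromosome median. With every line counted, JARID2 was 85.9-fold on chromosome 8 from 28442001 and 84.1-fold on chromosome 14 from 24290001, so their order changed.

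With 3.39 MTF2 reads expected per bin, a highest bin under 1-fold holds few reads, and a small MTF2 rise in a block of 5 kb is not detectable at this depth. With 1 library per protein and no input, JARID2 signal raised for other reasons than binding cannot be told apart from occupancy.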

Other observations

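In 3 members more than 65% of the JARID2 reads lay on 1 strand. They were on chromosome 3 from 3007001 to 3019000 (69.3% on the plus strand, JARID2 6.73-fold), chromosome 4 from 3006001 to 3014000 (72.2%, 14.0-fold) and chromosome 7 from 63957001 to 63970000 (27.0%, 7.64-fold). The blocks on chromosomes 3 and 4 lay 7 and 6 kb from the first read of their chromosome, and a block on chromosome 19 from 61278001 to 61284000 lay 38 kb from the last, at 9.35-fold JARID2 and 0.903-fold MTF2. The 5 members with the least variation between bins were at 5.83 to 9.93-fold in JARID2 and 0.116 to 0.555-fold in MTF2. Their low JARID2 level is in part built in, since the JARID2 limit of 5 leaves low members little room to vary. The flattest, on chromosome 5 from 137578001 to 137583000, had bins from 4.78 to 6.38-fold.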
